A study of Mus musculus with 3 samples.

Results

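The genes of DNA replication and mitosis were followed in mouse pro-B cells with and without Pax5, as 46 genes named by symbol: 25 that act in replication (S phase) and 21 that act in mitosis. All 46 were found by Entrez number among the 27179 genes of the count table, and all 46 had enough counts to be tested, with at least 160 counts in each library. Gene expression had been measured by RNA sequencing in 2 Pax5-/- samples and 1 wild-type sample. The Pax5-/- samples, described as independent preparations, came from male C57BL/6 bone marrow, and the wild-type sample from female C57BL/6 bone marrow; an age is not given. In all 3, marrow cells that carry B220, the CD45 isoform found on the B lineage, were expanded on OP9, a mouse stromal feeder line. For both Pax5-/- samples an IgM- fraction was then taken at day 7 by magnetic depletion, and for the wild type neither a day nor a depletion is stated. Genotype, sex and this step of preparation cannot be told apart in these samples, and the lone wild type gives no spread of its own.

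Replication starts when the origin recognition complex, Cdc6 and Cdt1 load the MCM helicase onto DNA; cyclin E and cyclin A with Cdk2 then let it fire, and polymerases held by the sliding clamp PCNA copy the strands. Mitosis is set off by Cdk1 with cyclin B, which Cdc25 phosphatases activate, and is then run by the Aurora and Polo kinases, the spindle motors and the spindle checkpoint. Pro-B cells divide in response to interleukin-7, and B-lineage precursors leave the cycle around the time they rearrange their light-chain genes. The comparison asks whether cells without Pax5 express this machinery at another level.

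Libraries held 6487846 to 6697879 counts. For Pax5, the targeted gene, 417 and 551 counts remained without Pax5 against 1601 with it (log2 fold change -1.78, SE 0.19, adjusted p = 0.0107, by edgeR's quasi-likelihood test); the deleted part of the allele is not given, so these remaining counts check nothing by themselves. Pro-B markers were detected in every sample, among them Rag1, a subunit of the recombinase, with 3737 and 4621 counts without Pax5 and 2237 with it, and Igll1, a surrogate light chain, with 2887 and 3697 against 5048. Their levels were not alike with and without Pax5. Of the 10 listed, 5 were called lower without Pax5 and 4 higher, or 90.0% called against 18.1% of all genes tested. Their median absolute log2 fold change was 1.42, against 0.41 over all genes tested. The 4 light-chain constant genes summed to 785 CPM (depth-scaled counts, with TMM factors) in the wild type but 8.64 and 4.99 CPM in the Pax5-/- pair. Of 12 stromal markers, Lum and Dcn were at 0 in all 3 samples, and the summed list reached 66.4 and 97.8 CPM without Pax5 and 48.8 CPM with it. Thy1, which lymphoid cells also express, gave 55.9 and 87.3 CPM of that sum against 18.7; the other 11 genes summed to 10.5 and 10.6 CPM against 30.1 CPM. The 10 neutrophil and monocyte markers summed to 23.9, 30.9 and 81.6 CPM. They did not all go 1 way: of the 8 tested, 3 were called lower without Pax5 and 1 higher. T-cell (5.25, 6.90 and 2.96 CPM over 7 genes) and erythroid markers (0.93, 1.03 and 1.25 CPM over 6 genes) were low throughout. The part of these other cells in the levels below was not tested.

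Most of the replication and mitosis genes differed by less than 2-fold with and without Pax5. Of the 46, 5 fell in Pax5-/-, 0 rose and 41 were not called (Benjamini-Hochberg adjusted p under 0.05 over all 11783 genes tested; 12 had an unadjusted p under 0.05). Over all genes tested 18.1% were called, 8.55% lower and 9.53% higher. The members' median log2 fold change was -0.19, against 0.01 over all genes tested. Both Pax5-/- samples lay below the wild type in 27 members and above it in 6, against 42.9% and 42.3% of all genes tested. In 38 of 46 members the 95% interval of the fold change lay inside a 2-fold difference in either direction, as it did for 49.2% of all genes tested; the members were counted more deeply, with a median of 1156 counts per library against 229.7. Together they took 1.17% and 1.06% of all counts without Pax5 and 1.24% with it. In bulk RNA, fewer cells in a phase of the cycle and less RNA per cell cannot be told apart.

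**Figure D1:**
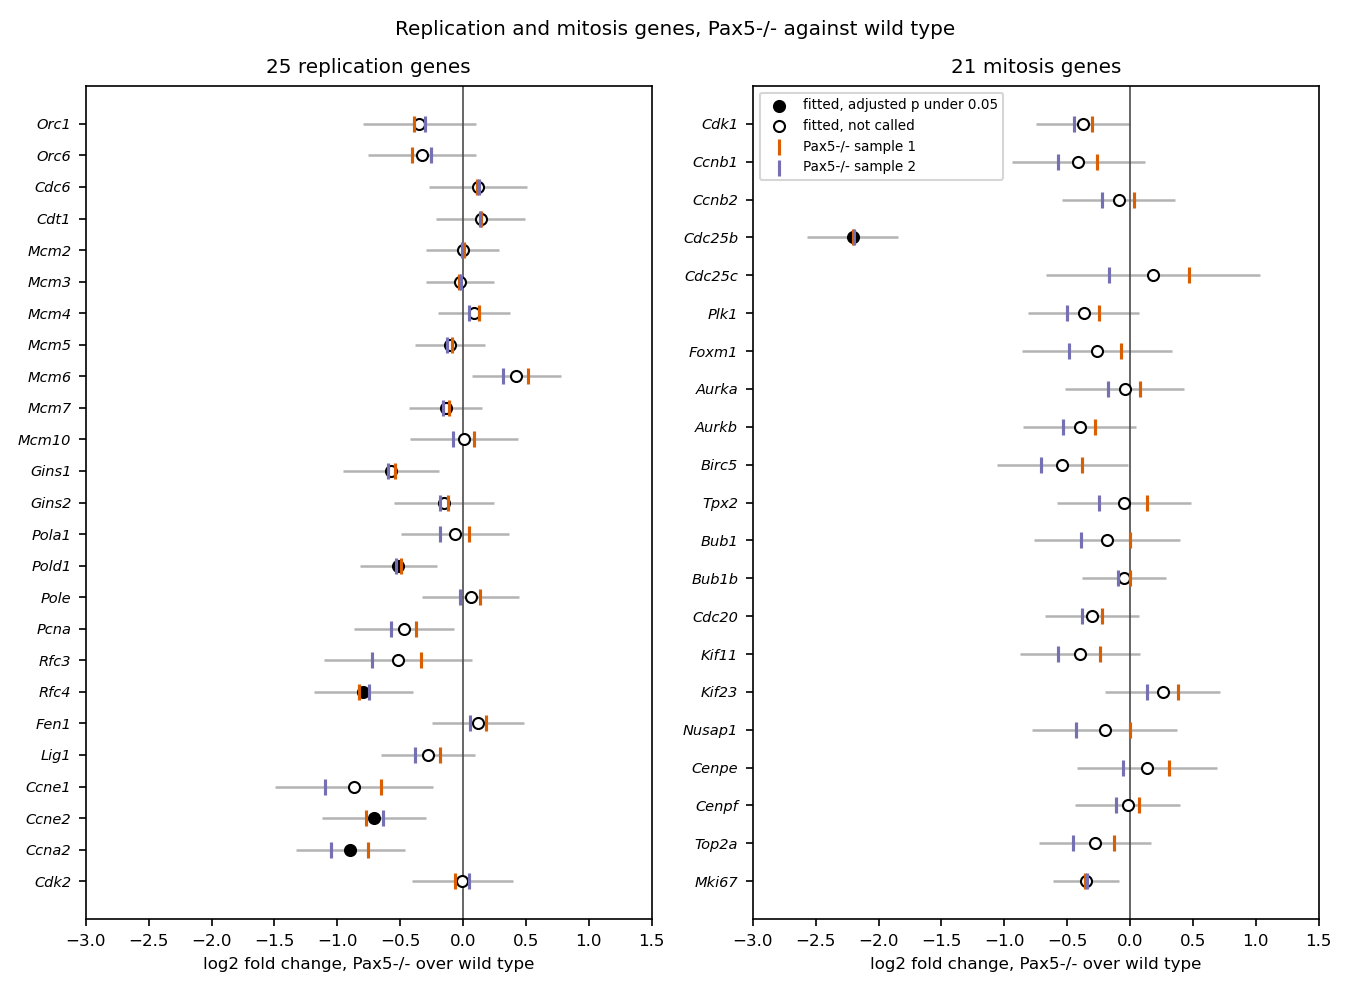
Fitted log2 fold changes of the 25 replication genes (left) and 21 mitosis genes (right), Pax5-/- over wild type, with 95% intervals (grey lines); filled circles were called and open circles were not, and the coloured ticks give each Pax5-/- sample's log2 CPM minus that of the wild type. Cdc25b stands at -2.21, apart from every other gene drawn, and both of its ticks lie on the circle.

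The mitotic entry phosphatase Cdc25b had the largest difference of the 46. Cdc25b (Entrez 12531; chromosome 2, 131186436 to 131198511, GRCm38) removes inhibitory phosphates from Cdk1 and so starts mitosis. The wild type gave 1524 counts, and Pax5-/- samples 1 and 2 gave 333 and 351. Both Pax5-/- samples were far below the wild type and nearly equal to each other, at 51.5 ± 0.115 CPM (SD, n = 2) against 238 CPM. Without Pax5 the gene was 4.62-fold lower, a log2 fold change of -2.21 with an SE of 0.13 and an adjusted p of 0.00430. The call held under all 9 other settings tried, with adjusted p from 2.28e-17 to 0.0148. Cdc25c, a phosphatase of the same family, had 291 and 196 counts against 208, with the Pax5-/- samples on either side of the wild type (log2 fold change 0.18, 95% interval -0.67 to 1.04, not called).

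Cdc25b was the 1 member called among the 7 genes of mitotic entry. It was also the 1 called among all 21 mitosis genes, or 4.8%, against 18.1% of all genes tested. Cdk1, the mitotic kinase itself, had 1089 and 1037 counts against 1332, and its cyclins gave 514 and 435 against 610 for Ccnb1 and 1255 and 1104 against 1214 for Ccnb2. Their log2 fold changes were -0.38, -0.41 and -0.09, and none was called. Plk1, the Polo kinase (-0.37), and Foxm1, a transcription factor of mitotic genes (-0.26), also lay below the wild type in both Pax5-/- samples without a call. Ccnb1 is uncertain, since 51.9% of its longest transcript matches 4 other annotated genes at 95% identity or more, among them Ccnb1-ps.

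None of the 14 genes of later mitosis was called, under the main test or the 9 other settings, and 2 had an unadjusted p under 0.05. Among the 4 genes of the Aurora kinases and the chromosomal passenger complex, the smallest p belonged to Birc5, which encodes survivin. It had 790 and 660 counts against 1019, or 109 ± 17.7 CPM (SD, n = 2) against 159 CPM, both samples lower than the wild type, without a call (log2 fold change -0.54, SE 0.19, adjusted p = 0.132). Aurkb was at -0.40, and Aurka and the spindle factor Tpx2 were at -0.04 and -0.05. Of the 3 checkpoint and exit genes, Cdc20, which activates the anaphase-promoting complex, had 1236 and 1166 counts against 1430 (log2 fold change -0.30, SE 0.14, adjusted p = 0.204), while the checkpoint kinase genes Bub1 and Bub1b were at -0.18 and -0.05.

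Kif11, the kinesin that pushes spindle poles apart, had 2403 and 2003 counts against 2811 (log2 fold change -0.40, SE 0.18, adjusted p = 0.192), and Kif23, a kinesin of cytokinesis, lay above the wild type in both Pax5-/- samples, at 0.26. The microtubule protein Nusap1 was at -0.20, and the kinetochore genes Cenpe and Cenpf were at 0.14 and -0.02. Top2a, the topoisomerase that untangles chromosomes, was the most abundant mitosis gene per length in each sample, at 260 and 208 CPM per kilobase without Pax5 and 284 with it (log2 fold change -0.28, adjusted p = 0.295). Mki67, which encodes the proliferation marker Ki-67, had 4524 and 4798 counts against 5727. Its Pax5-/- samples were close together and below the wild type, at 702 ± 4.62 CPM (SD, n = 2) against 893 CPM. The difference was not called (log2 fold change -0.35, 95% interval -0.61 to -0.09, adjusted p = 0.0806).

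Among the replication genes, 4 of 25 fell and 0 rose, with a median log2 fold change of -0.14. These made 16.0% called lower, beside 8.55% called lower and 9.53% called higher over all genes tested. Over the 9 other settings the count was 0 to 4. Origin licensing held none of the 4, and 1 of its 10 genes had an unadjusted p under 0.05. The 6 subunit genes of the MCM helicase ran from 115.6 to 352.1 CPM per kilobase over the samples, and Mcm6 was the highest of the 25 genes per length in each sample. Log2 fold changes of Mcm2, Mcm3, Mcm4, Mcm5 and Mcm7 were -0.00, -0.03, 0.09, -0.11 and -0.14. Mcm6 had 6619 and 6056 counts against 4570, above the wild type in both, with a log2 fold change of 0.42 (SE 0.13, 95% interval 0.07 to 0.78, adjusted p = 0.0998). The loaders Cdc6 (0.12) and Cdt1 (0.14) and the origin recognition genes Orc1 (-0.35) and Orc6 (-0.33) were not called.

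At helicase activation, Gins1, a subunit of the GINS complex that joins MCM at the fork, had 272 and 274 counts against 392 (log2 fold change -0.57, SE 0.14, adjusted p = 0.0636). Gins2 and Mcm10, which act at the same step, were at -0.15 and 0.01. Of the polymerase genes, Pold1, the catalytic subunit of polymerase delta, which copies the lagging strand, fell: 1657 and 1702 counts against 2315, with CPM of 253 ± 4.06 (SD, n = 2) against 361. Both Pax5-/- samples were below the wild type by more than they differed (log2 fold change -0.51, SE 0.11, adjusted p = 0.0498), but the call was lost under 6 of 9 other settings, over which adjusted p ran from 0.0348 to 0.9997. The catalytic genes of polymerases alpha and epsilon had samples on either side of the wild type, Pola1 at -0.06 and Pole at 0.06; Pola1 is on the X chromosome, and the samples differ in sex.

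All 3 genes of the clamp and its loader lay below the wild type in both Pax5-/- samples, as did 42.9% of all genes tested, and 1 was called. Rfc4, a subunit of the loader, fell from 512 counts to 290 and 322, and in CPM from 79.9 to 44.8 and 47.3. Its log2 fold change was -0.79, with an SE of 0.14 and an adjusted p of 0.0340. The call was kept under 6 of 9 other settings, with adjusted p from 0.0219 to 0.941. Rfc3 had 451 and 362 counts against 564 (log2 fold change -0.52, SE 0.21, adjusted p = 0.172), and Pcna 1354 and 1234 against 1733 (-0.47, SE 0.14, adjusted p = 0.101). For Okazaki fragments, the ligase gene Lig1 had 2188 and 2001 counts against 2457 (-0.28, SE 0.14, adjusted p = 0.229), and Fen1, the flap nuclease, was at 0.12. Pcna, Mcm7 and Cdc6 are uncertain, with 51.4%, 72.8% and 33.0% of the longest transcript matched by a copy elsewhere.

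Of the 3 S-phase cyclins 2 fell, where 8.55% of all genes tested were called lower, and their kinase Cdk2 was not called. Ccna2, cyclin A2, which works with Cdk2 in S phase and with Cdk1 later, had 2195 and 1884 counts against 3672, or 308 ± 43.9 CPM (SD, n = 2) against 573 CPM. This 1.86-fold drop (log2 fold change -0.90, SE 0.16, adjusted p = 0.0325) was a call kept under 7 of 9 other settings (adjusted p from 0.000757 to 0.816). Ccne2, cyclin E2, had 201 and 233 counts against 342 (32.6 ± 2.26 CPM, SD, n = 2, against 53.3 CPM) and fell by 0.71 (SE 0.15, adjusted p = 0.0479), which 4 of 9 other settings kept (adjusted p from 0.0334 to 0.9997). Ccne1, cyclin E1, had 234 and 180 counts against 365; both samples were below the wild type but apart from each other, and the gene was not called (log2 fold change -0.86, SE 0.23, adjusted p = 0.0757). Cdk2, the partner of all these cyclins, had 689 and 782 counts against 713, on either side of the wild type (-0.01, 95% interval -0.41 to 0.39).

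Exons of some members overlap a gene on the other strand in GENCODE M21, over 12.5% of the exonic bases in Ccna2 (Exosc9), 17.4% in Ccne2 (Ints8), 12.7% in Rfc4 (Eif4a2), 67.3% in Gins2 (Gse1) and 84.2% in Fen1, and without a stated strand setting reads of such pairs cannot be separated. Cdc25b has an overlap of 2.47% (Spef1) and Pold1 of 0%, and no copy of either was found.

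**Figure D2:**
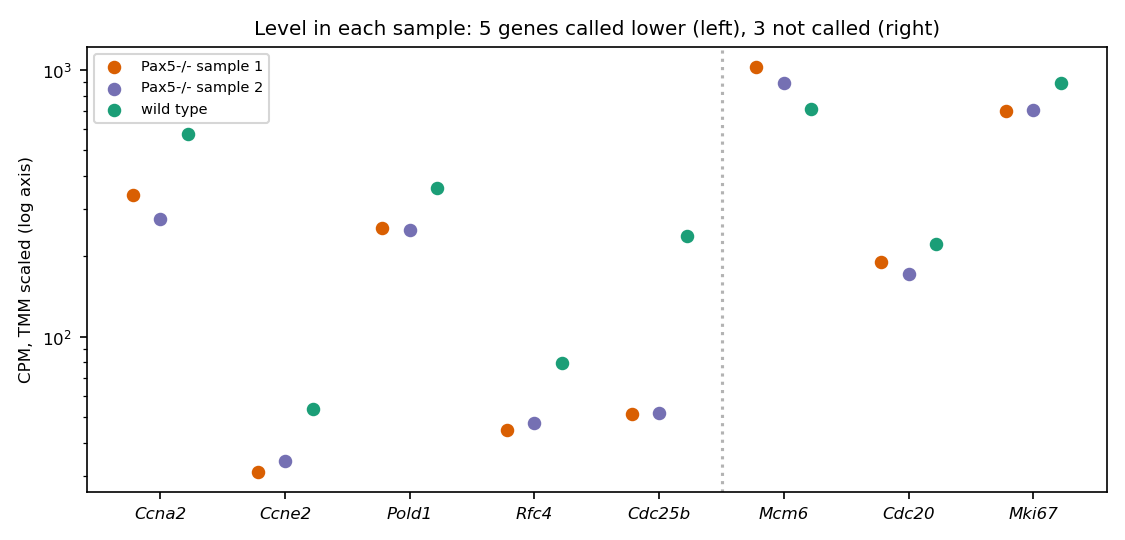
TMM-scaled CPM on a log axis in each of the 3 samples for the 5 members called lower (left of the dotted line) and 3 members not called (right); each point is 1 sample. The gap between the wild type and both Pax5-/- samples is 4.62-fold for Cdc25b and 1.43-fold to 1.86-fold for the other 4 called genes.

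The Pax5-/- samples themselves were not alike, and their median difference was larger over mitosis than over replication genes. Sample 1 was above sample 2 in 19 of 21 mitosis genes, with a median log2 CPM difference of 0.26, and in 18 of 25 replication genes, with a median of 0.06. Over all genes tested, sample 1 was the higher in 46.6% and the median was -0.02. Against the wild type, the median over mitosis genes was -0.07 in sample 1 and -0.39 in sample 2, and over replication genes -0.12 and -0.18. Summed over their 21 genes, mitosis transcripts reached 5539 and 4648 CPM without Pax5 and 6186 CPM with it, and the 25 replication genes at 6210, 5790 and 6452 CPM. The other 2 mitosis genes, Cdc25b and Mki67, were nearly equal in the Pax5-/- samples. With 1 wild-type sample, no test of the difference between replication and mitosis genes was made.

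**Figure D3:**
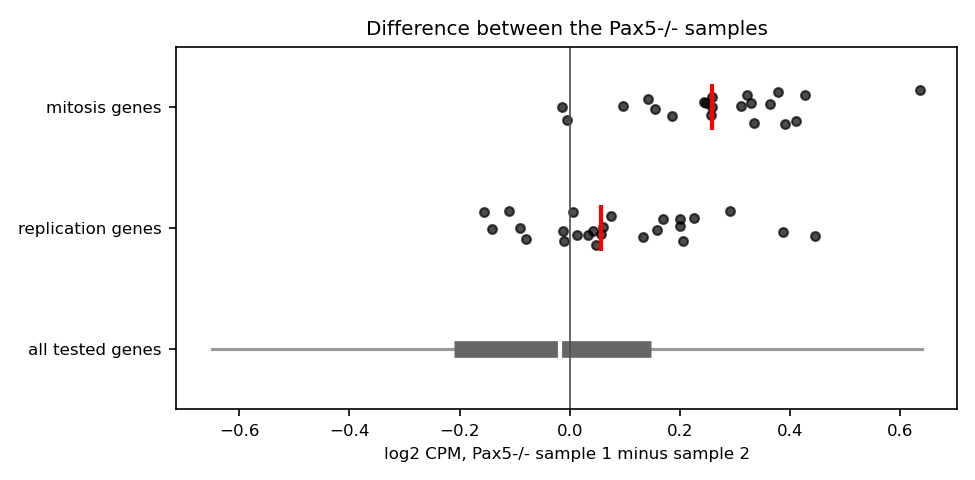
Log2 CPM of Pax5-/- sample 1 minus sample 2 for each mitosis gene and replication gene (points, spread vertically for display; red bars are medians), and for all tested genes (thick bar, 25th to 75th percentile; thin line, 5th to 95th; white bar, median). Mitosis genes centre on 0.26 and reach 0.64 for Cdc25c, replication genes centre on 0.06, and all tested genes on -0.02.

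Motif counts in the promoters differed between the replication and mitosis classes. Promoter windows of RefSeq (GRCm38.p6) ran from 250 bases before to 50 after a start listed for the gene, not always its outermost. They were found for 19 replication and 17 mitosis genes and searched on both strands for 3 motifs. These were TTTGAA (the CHR, a cell cycle element read by the MuvB complex), CCAAT (the CCAAT box, bound by NF-Y) and TTTNNCGC (the form bound by E2F factors). Windows with both CHR and CCAAT made up 11 of 17 for mitosis genes, 1 of 23 for replication genes and 6.95% of 32851 windows of all genes. The E2F form was in 12 of 23 windows of replication genes, 1 of 17 of mitosis genes and 5.17% of all. These are matches of letters, not shown to be sites. The windows of a few members are printed 5′ to 3′ with the matches in capitals: Cdc25b and Pold1, called lower, beside Cdc20 and Mcm6, not called, as windows that hold the motifs of the mitosis and replication classes. Mcm6 has 3 matches to the E2F form, the most of the 23 replication windows, of which 11 hold none.
Cdc25b: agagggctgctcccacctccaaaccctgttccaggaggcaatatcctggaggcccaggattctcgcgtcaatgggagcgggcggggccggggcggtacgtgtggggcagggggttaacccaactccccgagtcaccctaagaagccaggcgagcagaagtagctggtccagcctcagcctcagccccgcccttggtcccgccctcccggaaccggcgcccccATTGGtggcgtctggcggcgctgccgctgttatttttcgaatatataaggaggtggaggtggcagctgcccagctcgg
Cdc20: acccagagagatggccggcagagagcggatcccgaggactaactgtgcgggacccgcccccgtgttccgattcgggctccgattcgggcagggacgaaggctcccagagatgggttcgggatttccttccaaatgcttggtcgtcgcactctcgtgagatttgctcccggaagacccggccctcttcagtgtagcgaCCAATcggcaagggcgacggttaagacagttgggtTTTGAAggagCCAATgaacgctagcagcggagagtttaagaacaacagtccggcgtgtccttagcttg
Mcm6: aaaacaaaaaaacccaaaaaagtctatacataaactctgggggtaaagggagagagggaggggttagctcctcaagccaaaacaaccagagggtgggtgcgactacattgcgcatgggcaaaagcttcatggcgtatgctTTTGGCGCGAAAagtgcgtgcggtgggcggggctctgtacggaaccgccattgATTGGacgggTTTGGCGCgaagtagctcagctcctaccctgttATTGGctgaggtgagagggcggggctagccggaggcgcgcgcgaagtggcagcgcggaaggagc
Pold1: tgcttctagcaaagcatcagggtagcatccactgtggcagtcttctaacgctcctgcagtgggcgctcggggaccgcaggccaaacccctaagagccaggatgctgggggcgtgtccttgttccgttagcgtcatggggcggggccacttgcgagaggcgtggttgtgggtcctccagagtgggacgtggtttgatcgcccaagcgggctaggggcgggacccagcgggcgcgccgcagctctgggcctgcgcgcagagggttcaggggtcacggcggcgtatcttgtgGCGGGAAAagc

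The Cdc25b window (chr2:131186698-131186997, plus strand) held a CCAAT box in reverse 28 bases before its listed start and no TTTGAA. That listed start lies inside the gene, downstream of the gene's first base at 131186436. Bases upstream of the window's first base at 131186698, those around the gene's first base included, were not searched. In the Cdc20 window (chr4:118437294-118437593, minus strand), TTTGAA began 18 bases before the start, between CCAAT boxes at 53 and 8 bases. The Mcm6 window (chr1:128359656-128359955, minus strand) held the E2F form at 110 bases, overlapped by a match in reverse at 106, and again at 47 bases, with CCAAT boxes in reverse at 57 and 14. Pold1 (chr7:44548766-44549065, minus strand) had 1 match to the E2F form, in reverse, 39 bases after the start. Of the 3 called genes with a window, Rfc4 held none of the 3 motifs, and no window was used for Ccna2 or Ccne2.

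In a wider set of 117 cell cycle genes, 5 of the 8 genes called were transcription factors or pocket proteins. Of the 116 tested, 1 rose, 7 fell and 108 were not called, so that 6.9% were called against 18.1% of all genes tested, and the median log2 fold change was -0.15. Of 18 transcription factors and pocket proteins, 5 fell, 0 rose and 13 were not called, a share of 27.8% called lower against 8.55% over all genes tested. The list was chosen with earlier results of these data known, so this share is a description, not a test. E2f2, an E2F factor of the activator kind, had 477 and 421 counts against 3020, with the wild type far above both Pax5-/- samples (log2 fold change -2.80, SE 0.16, adjusted p = 0.00402; called under all 9 other settings, adjusted p from 6.94e-30 to 0.0113). Rb1, the retinoblastoma protein that holds E2F factors in check, had 280 and 266 counts against 945 (-1.84, SE 0.15, adjusted p = 0.00692). E2f7, a repressor E2F, had 171 and 180 counts against 455 (-1.43, SE 0.14, adjusted p = 0.00900). E2f8 and Mybl2 each had a log2 fold change of -0.98 and were called lower. Of the 9 other settings, 8 kept the calls of Rb1, E2f7 and Mybl2, and 7 kept that of E2f8. Mybl2 is uncertain, since 28.3% of its longest transcript is matched by copies elsewhere. E2f1, with 282 and 295 counts against 311, was not called. Rbl2, a further pocket protein gene, had 557 and 573 counts against 345. It lay above the wild type in both Pax5-/- samples without a call (log2 fold change 0.66, adjusted p = 0.0546).

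Outside the transcription factors, 3 further genes were called. Cdc7, the kinase that fires licensed origins, was the 1 gene to rise among 15 of licensing and firing, with 332 and 325 counts against 142 (log2 fold change 1.16, SE 0.16, adjusted p = 0.0188). Its activating subunit Dbf4 had 695 and 623 counts against 968 and was not called. Cenpm, of the kinetochore, fell by 1.10 (SE 0.14, adjusted p = 0.0154; 1 of 16 genes), and Ube2c, the ubiquitin-conjugating enzyme of the anaphase-promoting complex, by 0.72 (SE 0.14, adjusted p = 0.0403; 1 of 10 tested). Of the 9 other settings, 8 kept the calls of Cdc7 and Cenpm and 7 kept that of Ube2c, whose adjusted p ran from 0.00873 to 0.9997. In the other lists 0 genes were called. These were 16 polymerase, primase and clamp genes (smallest p Prim2, log2 fold change 0.63, adjusted p = 0.0711; 3 with an unadjusted p under 0.05), 8 of fork protection and chromatin assembly (Timeless, 0.49, adjusted p = 0.105; 2 with an unadjusted p under 0.05), 12 of mitotic kinases and entry (Nek2, -0.71, adjusted p = 0.0529; 2) and 21 of the spindle, motors and cytokinesis (Ckap2, -0.44, adjusted p = 0.159; 0). Nek2 was called under 4 of the 9 other settings and Prim2 under 1, with adjusted p from 0.0321 to 0.9997 for Nek2.

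**Figure D4:**
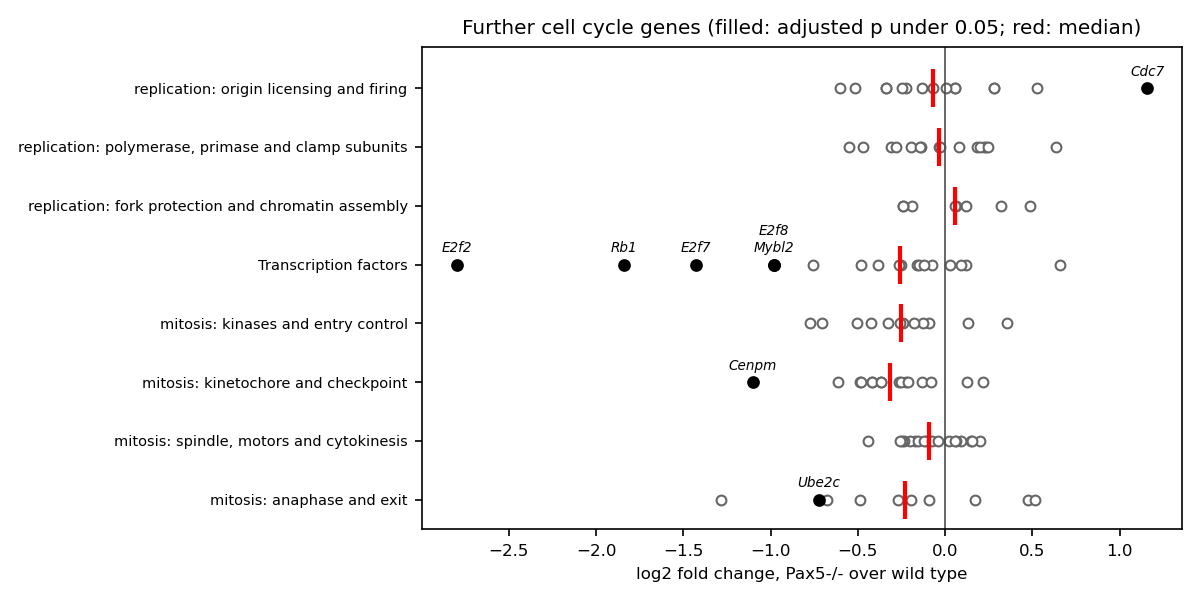
Log2 fold change, Pax5-/- over wild type, of each tested gene in 8 further lists of cell cycle genes (points; filled and named where called, red bars are list medians). E2f2 at -2.80, Rb1 at -1.84 and E2f7 at -1.43 lie to the left of all other genes shown, and Cdc7 at 1.16 to the right.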

How the data were processed

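RNA from 2 Pax5-/- samples and 1 wild-type sample was compared, grouped by the labels' titles. The deposited values are whole-number gene counts, not normalized, made by the authors with featureCounts against mm10, per the submitters' processing notes; the version, aligner, annotation and strandedness of that counting are not stated. The series table equalled each sample's own table in all 27179 genes. Per the file headers, deposited gene lengths in bases, another measure, served for CPM per kilobase.

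Symbols came from RefSeq genes of GRCm38.p6 by Entrez number (25275 matched). The test was edgeR 4.0.16 in R 4.3.3: filterByExpr (minimum count 10), TMM factors (1.00, 1.018 and 0.983), glmQLFit and glmQLFTest, Benjamini-Hochberg adjustment over all genes tested and a threshold of 0.05. There was 1 residual degree of freedom, moderated by 3.15 prior ones, and the wild type was assumed to vary like the Pax5-/- samples; nothing says that these came from separate animals, so p-values measure only their spread. SE is the log2 fold change over the root of the F statistic, and 95% intervals use its 4.15 total degrees of freedom. Log2 CPM used a prior count of 2. Near-identical copies were sought with blastn 2.17.0 among GENCODE M21 transcripts (95% identity over 100 bases, other loci only). The test was checked on simulated data that varied less between samples than these, with the same spread in both groups. That check does not show its error rate here. Alternatives used limma 3.58.1 and DESeq2 1.42.0, among others.

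The members and lists were chosen with earlier results of these data known. All called members, and otherwise the member with the smallest p in each role, are given with their values; in the wider lists up to 3 called genes whose CPM averaged 1 or more, or the gene with the smallest p. E2f8, Mybl2, E2f1, Rbl2 and Dbf4 were added after their values were seen. The result of 1 marker is not reported here.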

Additional observations from a re-analysis of the deposited data

How the results depend on the processing

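The 9 other settings were RLE scaling, library size alone, 2 other filters (1 count in any library, mean CPM of at least 1), DESeq2, limma-voom, the likelihood ratio test, robust dispersion and a fixed biological coefficient of variation of 0.4. Cdc25b was the 1 mitosis gene called under each of them. The replication count of 4, all lower, became 2 with library size alone and with limma-voom, 1 with DESeq2 and in the likelihood ratio test and 0 with the fixed variation. The 1 in the likelihood ratio test was Ccne1 (adjusted p = 0.0320). With the filter of 1 count in any library, Pold1 alone of the 4 lost its call (adjusted p = 0.0511, quasi-likelihood test). With the fixed variation, calls over all genes fell from 2130 to 1206 (623 higher, 583 lower) and those in the wider lists from 8 to 1 (0 higher, 1 lower). The wider lists gave 14 calls with robust dispersion, 4 of them higher; the 1 gene higher became 3 with RLE scaling and with the mean CPM filter, and 2 with DESeq2 and with the filter of 1 count. No member's call reversed under these settings, and scaling moved the median of all genes by less than 0.1. Leaving out each Pax5-/- sample left 1 sample a group and no test: the median log2 difference ran from -0.18 to -0.12 for replication genes and from -0.39 to -0.07 for mitosis genes. No paired analysis was possible because the groups share fewer than 2 replicate numbers. Depth was not limiting for the members, each with 160 counts or more; a count of 0 would have allowed 0.441 to 0.468 CPM (3 counts, counting error only).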
